A study of Mus musculus with 40 samples.

Results

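The genes described here were 35 genes of the endoplasmic reticulum (ER) stress response and of ER protein folding, taken by gene symbol from the count tables of mouse liver. All 35 members reached at least 1 CPM (a gene's count scaled to the size of its library) in at least 5 of the 40 mice, and they were tested among 12942 genes that passed the same filter, of 40239 genes counted outside the ribosomal RNA genes. They fell into 4 lists by role: 15 chaperones and folding enzymes, 9 genes of the PERK/ATF4 arm, 3 genes of the other sensors and transcription factors (Ern1, Atf6 and Xbp1), and 8 genes of ER-associated degradation (ERAD) and translocation.

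The ER of the hepatocyte folds the large load of plasma proteins that the liver secretes. When unfolded protein accumulates there, the sensors IRE1 (Ern1), PERK (Eif2ak3) and ATF6 (Atf6) start the unfolded protein response: IRE1 splices Xbp1 mRNA, ATF6 is cut to release a transcription factor, and PERK phosphorylates eIF2α, which slows translation and favors that of ATF4. XBP1 and ATF6 are known to act on genes of chaperones and ERAD, and ATF4 on genes of amino acid supply and on Ddit3 (CHOP), Trib3, Chac1 and Ppp1r15a (GADD34). The mRNA level of a sensor is not its activity, and gene counts do not show Xbp1 splicing or protein cleavage.

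Livers came from 40 male mice of age 5 months, all labelled C57BL6/J, in 8 groups of 5, 20 of them wildtype (WT) and 20 with a liver-specific knockout (KO) of PPARγ, the nuclear receptor that the insulin sensitizer pioglitazone (Pio) activates. From age 2 months the mice ate a control diet or a high-fat diet (HFD, 60% of calories from fat), for 3 months; pioglitazone hydrochloride made up 0.01% of the weight of both diets in the treated groups. The groups are named control, Pio, HFD and HFD-Pio within each genotype. KO mice carried PPARγ-loxP alleles and the Alb-Cre transgene, whose albumin promoter is active in hepatocytes, and the WT mice were plain C57BL6/J mice rather than floxed littermates. WT libraries made up 1 deposited table and KO libraries another, and a difference of genotype cannot be told apart from 1 of table. Drug and diet effects were compared between genotypes, and levels were not. In whole liver, a change in the cells' RNA and a change in the share of cells cannot be told apart either.

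Libraries held 15788242 to 49857017 gene counts in WT mice and 21542958 to 28334251 in KO mice. Pparg itself stood at 5.79 to 14.2 CPM over the 20 WT mice and 3.01 to 9.90 CPM over the 20 KO mice; these ranges overlapped, and a count over the whole gene does not separate deleted from kept exons. The summed level of 8 adipocyte markers, several of them known PPARγ targets, was 2662 to 4972 CPM in WT Pio against 1108 to 1940 CPM in WT control, and 515 to 1382 CPM in KO Pio against 831 to 1774 CPM in KO control. Most of this sum in WT mice was Car3, which averaged 3162 CPM in WT Pio and 1433 CPM in WT control. Cfd averaged 208 and 1.73 CPM in these 2 groups, Cidec 90.7 and 15.4 CPM, Fabp4 85.8 and 8.87 CPM, and Retn 3.10 and 0.0449 CPM. These and Car3 were the 5 of the 8 markers that passed the filter. All were higher in WT Pio at an adjusted p of at most 0.05 by edgeR. The sum was also 2939 to 5120 CPM in WT HFD mice, which had no Pio. The liver label held by its markers: all 8 hepatocyte markers were detected, with a summed level of 66820 to 147900 CPM in every mouse but 1. That library and another stood apart, and results that rest on them are given with and without them. Mouse 13 (KO Pio) differed by at least 2-fold from the mean of its group-mates in 55.3% of genes, against 6.23% to 8.72% for those mice, and its summed hepatocyte markers were 32870 CPM against 93830 to 127100 CPM. Mouse 832 (WT control) differed so in 11.7% of genes, against 0.865% to 2.36% for its group-mates, and its summed stellate cell markers were 768 CPM against 211 to 258 CPM. Mouse 829 (WT HFD) differed so in 9.48% of genes, against 0.402% to 1.66% for its group-mates. This mouse was left out only in the fits that left out each mouse in turn.

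Promoter sequences are shown here because the known response elements were found mostly in different lists. Windows from 250 bases before to 50 bases after each start were taken from RefSeq (GRCm38.p6) and were found for 31 of the 35 genes (all but Atf6, Derl1, Hyou1 and Manf), and both strands were searched. The ER stress response element (ERSE: CCAAT, then 9 bases of any kind, then CCACG), to which NF-Y and ATF6 or XBP1 bind, was in the windows of 7 of 13 chaperones (53.8%), 2 of 7 ERAD and translocation genes, 0 of 9 PERK/ATF4 genes and 0 of 2 of the remaining list, against 0.183% of 9841 tested genes with a window. Sites of the chaperones are printed with the 2 half-sites in capitals, in the direction in which CCAAT comes first:
Hspa5 (chr2:34772020-34772048, + strand): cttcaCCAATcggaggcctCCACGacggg
Hsp90b1 (chr10:86705633-86705661, - strand): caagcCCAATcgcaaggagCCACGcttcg
Hsp90b1 (chr10:86705528-86705556, + strand): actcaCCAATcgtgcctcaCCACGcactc
Calr (chr8:84847070-84847098, + strand): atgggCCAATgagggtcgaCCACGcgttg
Creld2 (chr15:88819515-88819543, - strand): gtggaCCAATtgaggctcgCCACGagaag
Pdia6 (chr12:17266486-17266514, + strand): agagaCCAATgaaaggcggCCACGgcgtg
Dnajc3 (chr14:118937822-118937850, + strand): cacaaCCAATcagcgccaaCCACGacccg
Canx (chr11:50325795-50325823, - strand): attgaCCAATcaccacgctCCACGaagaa
Hsp90b1 held 2 such sites and the other genes printed held 1 each, all of them before the start of the gene.

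The shorter form ERSE-II (ATTGG, 1 base, CCACG) was in 2 of the 31 windows, against 0.0813% of tested genes. Of these, 1 was that of Herpud1, an ERAD component that is itself a classic target of the response, printed here because it was the 1 member called higher on a high-fat diet:
Herpud1 (chr8:94386372-94386392, + strand): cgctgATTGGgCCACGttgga
The other lay in Dnajb11. The UPRE core (TGACGTG) was in 1 window, that of Hspa5, against 3.14% of tested genes. The CEBP-ATF element (TGATG, 1 base, AA), which ATF4 and C/EBP factors bind together, was in 4 of 9 PERK/ATF4 windows (44.4%), in that of Herpud1 and in none of the chaperones, against 2.77% of tested genes. The 3 sites before the start of a PERK/ATF4 gene are printed with the matched bases in capitals:
Asns (chr6:7693220-7693237, - strand): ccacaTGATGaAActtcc
Atf3 (chr1:191183431-191183448, + strand): cttggTGATGcAAgtgcg
Chac1 (chr2:119351044-119351061, - strand): aggagTGATGcAAcggca
The remaining one, in Trib3, lay just after the start. A match of this kind is a run of letters, and the lack of one in this window says nothing about sites elsewhere in a gene.

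By level per length of exon, chaperones stood highest among the members in WT control livers. Calr (calreticulin, a calcium-binding lectin chaperone) was at 373 ± 76.5 RPKM (CPM per kilobase of exon, mean ± SD, n = 5), above 99.1% of tested genes with a length, followed by Herpud1 at 223 ± 73.7 RPKM and Hspa5 (BiP, the central ER chaperone) at 169 ± 42.1 RPKM; the SDs of Herpud1 and Hspa5 overlapped. Hsp90b1, Pdia4, Pdia3 and Canx followed at 73.0 to 119 RPKM. Atf4 at 64.5 ± 20.9 RPKM and Xbp1 at 60.1 ± 14.2 RPKM did not differ beyond their SDs. The remaining chaperones ran from Pdia6 at 64.1 RPKM to Dnajc10 at 3.25 RPKM, and the ERAD and translocation genes after Herpud1 from Syvn1 at 48.7 RPKM to Derl3 at 3.14 RPKM. Genes of the PERK/ATF4 arm other than Atf4 were at 2.27 (Asns) to 13.5 RPKM (Trib3).

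The members varied together within groups as well as between them. In KO control, mouse 4 held the highest value of 13 of the 15 chaperones and mouse 2 the lowest of 13. In KO HFD, mouse 9 was highest for 14 of 15, and in WT HFD-Pio mouse 840 was highest for 13 of 15. In WT control, mouse 832 was highest for 7 of 9 PERK/ATF4 genes and lowest for 8 of 15 chaperones. Over all 12942 genes, values lay outside those of the 4 group-mates for 9468 genes in mouse 9 and 8717 in mouse 832. The numbers were 7134 for mouse 840, 4969 for mouse 4 and 4254 for mouse 2. How far the lists followed such library-wide differences was not tested. Mouse 9 also differed by at least 2-fold from its group-mates in 7.54% of genes and had summed macrophage markers of 698 CPM against 314 to 387 CPM. The heat map of all members shows these columns.

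**Figure D1:**
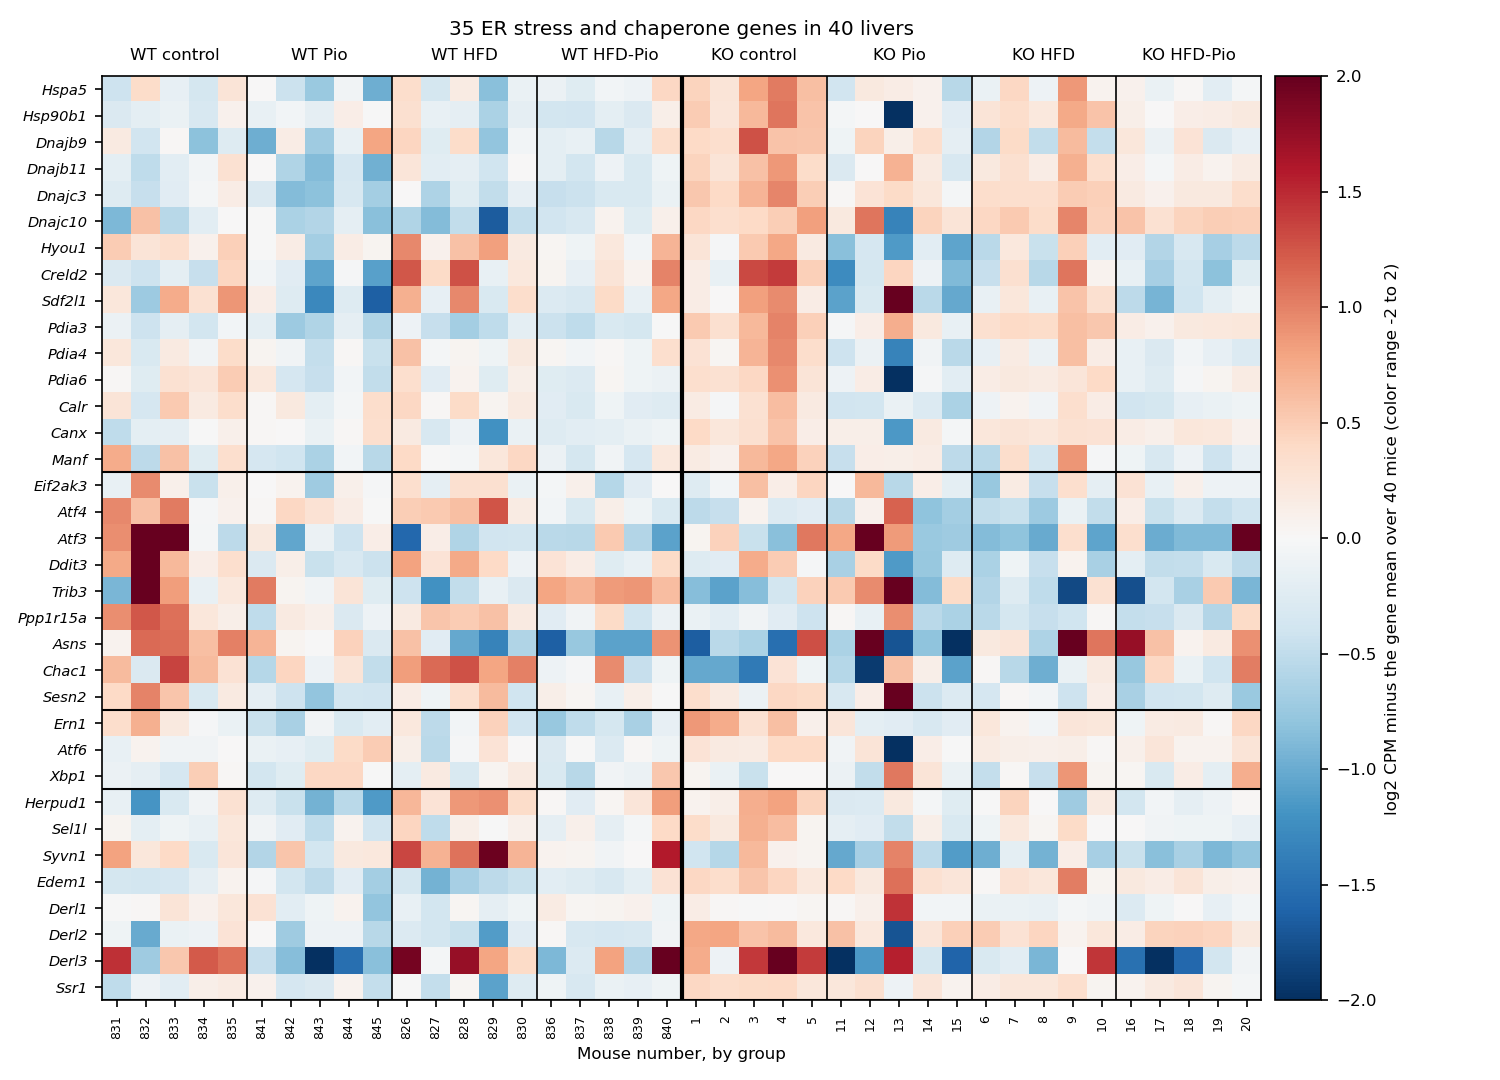
Each column is 1 of the 40 mice, by group, and each row 1 of the 35 genes, in the order chaperones, PERK/ATF4 arm, sensors, ERAD and translocation; color gives log2 CPM minus the gene's mean over 40 mice, cut at -2 and 2. The KO control columns are red over the chaperone rows, mouse 832 is dark red for Atf3, Ddit3 and Trib3, and mouse 13 holds both extremes. The mean is over both genotypes. A difference in color between WT and KO columns therefore cannot be told apart from 1 of table.

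The first question was what Pio did to these genes in KO mice on the control diet, where hepatocyte PPARγ was the target of the knockout. Chaperones were lower with Pio, and no member was called higher. Of the 35 members, 10 were called lower at an adjusted p of at most 0.05 (edgeR quasi-likelihood test, Benjamini-Hochberg over 12942 genes), against 1.26% of all genes called lower and 7.75% called higher. They were 8 chaperones (Hspa5, Hsp90b1, Hyou1, Pdia4, Pdia6, Creld2, Dnajc3 and Calr) with Ern1 and Sel1l. All 15 chaperones had a log2 fold change below 0, with a median of -0.54 against 0.03 for all genes, and 7 of 15 were lower in all 5 Pio mice than in all 5 control mice, against 2.09% of all genes.

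Hspa5 was at 988, 873, 1260, 1492 and 1102 CPM in KO control and at 557, 830, 808, 770 and 496 CPM in KO Pio. Every Pio mouse was below every control mouse, and the log2 fold change was -0.72 (SE 0.22, 95% interval -1.18 to -0.27, adjusted p = 0.0388 by edgeR; exact permutation test, two-sided, p = 0.00794, the smallest that 5 against 5 mice allow). Hyou1 (the ER HSP110-type chaperone that exchanges nucleotide on BiP) was at 356, 294, 431, 509 and 337 CPM in KO control and at 168, 236, 136, 258 and 144 CPM in KO Pio. The groups did not overlap, and the log2 fold change was -1.03 (SE 0.21, adjusted p = 0.00848 by edgeR). Pdia4, a disulfide isomerase, was at 281, 238, 368, 446 and 294 CPM in KO control and at 172, 212, 91.0, 220 and 159 CPM in KO Pio. It again showed no overlap, with a log2 fold change of -0.93 (SE 0.19, adjusted p = 0.00848 by edgeR).

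Hsp90b1 (GRP94, the ER form of HSP90) was at 765, 634, 842, 1127 and 793 CPM in KO control and at 521, 542, 89.8, 567 and 461 CPM in KO Pio. The groups did not overlap; the value of 89.8 CPM was that of mouse 13, and the log2 fold change was -0.93 (SE 0.25, adjusted p = 0.0236 by edgeR) with it and -0.67 (SE 0.15, adjusted p = 0.0232) without mice 832 and 13. Creld2, a secreted ER-stress-responsive protein, was at 40.8, 33.0, 91.3, 97.1 and 51.3 CPM in KO control and at 15.3, 28.6, 49.3, 34.2 and 19.8 CPM in KO Pio. These groups overlapped, and the log2 fold change was -1.09 (SE 0.34, adjusted p = 0.0402 by edgeR). Calr, chosen for this account after its values were seen, was at 1035, 905, 1136, 1409 and 1038 CPM in KO control and at 703, 710, 840, 765 and 594 CPM in KO Pio, a log2 fold change of -0.61 (SE 0.14, adjusted p = 0.0148 by edgeR) without overlap. The other called members had log2 fold changes of -0.74 (Pdia6, a disulfide isomerase), -0.68 (Ern1), -0.61 (Sel1l, the scaffold of the ERAD ubiquitin ligase) and -0.45 (Dnajc3, a BiP co-chaperone that restrains PERK).

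Without mice 832 and 13, the chaperone median in this comparison was -0.61, and 10 of 15 chaperones were lower in all 4 remaining Pio mice than in all 5 control mice, against 3.99% of all genes. Calls at the adjusted threshold numbered 6 of 35 then (Calr, Hsp90b1, Hyou1, Pdia3, Pdia4 and Derl3), all lower, against 0.819% of all genes called in either direction. Hyou1, Pdia4, Hsp90b1 and Calr were called both with and without these mice; Hspa5 was at -0.79 (adjusted p = 0.0877) without them, and Creld2 (-1.36), Pdia6 (-0.51), Dnajc3 (-0.51), Ern1 (-0.66) and Sel1l (-0.55) were not called then either. Sdf2l1, a partner of BiP, was at -0.04 (adjusted p = 0.966 by edgeR) with all mice and at -1.17 (adjusted p = 0.0576) without them; mouse 13 stood at 143 CPM against 15.9 to 26.9 CPM in the other Pio mice. The count also moved with single mice of the groups compared: 2 members, Hyou1 and Pdia4, were called when KO control mouse 4 was left out, 4 without mouse 1, 4 without mouse 3 and 5 without mouse 13 alone. All genes called made up 1.71%, 1.65%, 2.57% and 0.51% in these fits. When the 20 KO mice were fitted alone, with mouse 13 among them, 0 members and 0% of all genes were called.

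Immediate early genes moved in the same comparison. Their summed level over 12 genes was 218 to 1081 CPM in KO control and 746 to 3181 CPM in KO Pio, with Fos (log2 fold change 2.59, adjusted p = 0.00641 by edgeR), Junb and Ier2 the largest of 5 called higher. Fos was the 1 call of that list without mice 832 and 13, and Junb (1.22) and Ier2 (1.01) were not called. The cytosolic heat shock genes Hsph1 (-0.92, adjusted p = 0.0148 by edgeR) and Hspa8 (-0.76, adjusted p = 0.0487) were called lower, 2 of 12 on that list; without mice 832 and 13 Hsph1 was called and Hspa8 was not (-0.52, adjusted p = 0.17). Among other ER genes, 1 of 24 further folding genes (P4hb, protein disulfide isomerase, -0.47, adjusted p = 0.0224 by edgeR) and, of 32 further translocon, glycosylation and ERAD genes, Os9 (-0.48) was lower and Sec61b (1.30) higher. P4hb and Os9 were called without mice 832 and 13 as well, and Sec61b was not (0.15, adjusted p = 0.84 by edgeR). The counts of calls in these lists stand beside 1.26% of all genes called lower and 7.75% called higher. Without those 2 mice the share was 0.819% in either direction. The plasma cell genes Igkc (-1.51, adjusted p = 0.0472 by edgeR) and Jchain (-1.30, adjusted p = 0.0341) were called lower with all mice and not without those 2 (-1.27 and -1.09). The part of these genes and their cells in the chaperone result was not tested.

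**Figure D2:**
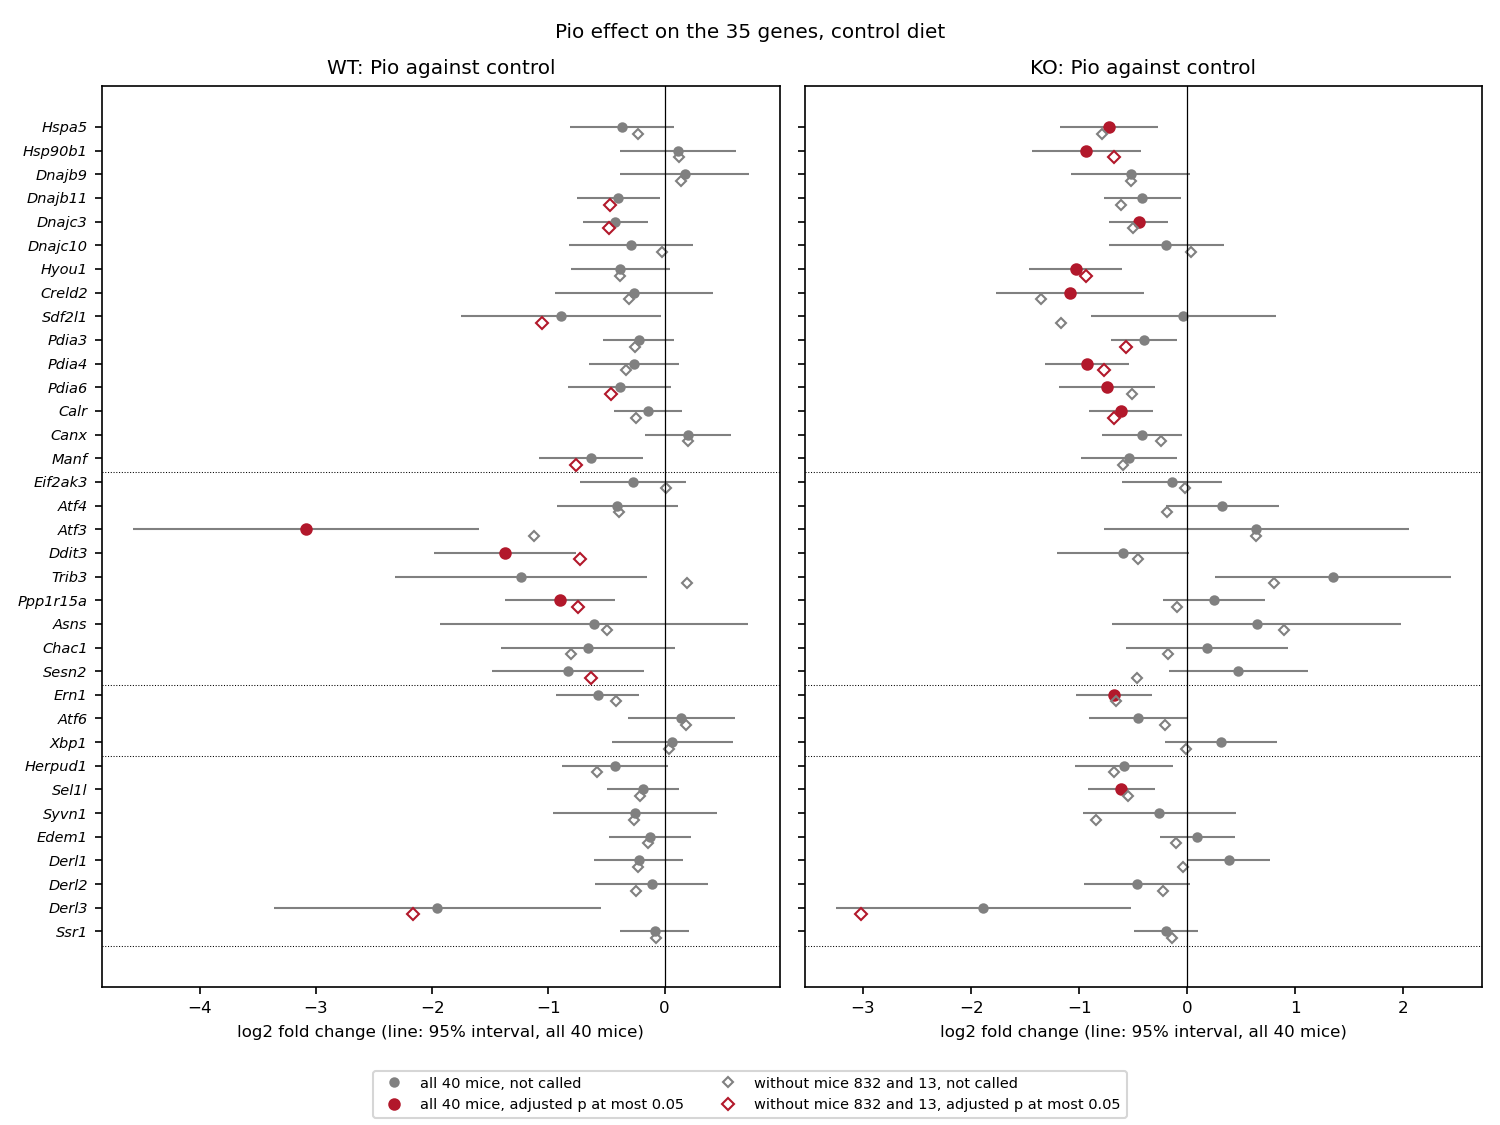
Log2 fold change of each of the 35 genes for Pio against control, both on the control diet (left panel WT, right panel KO), with separate x axes; dots and 95% intervals are from all 40 mice, diamonds from the fit without mice 832 and 13, and red marks an adjusted p of at most 0.05. In KO mice 8 red dots are chaperones; in WT mice the 3 red dots are Atf3, Ddit3 and Ppp1r15a.

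Of the 7 chaperones with an ERSE in the window, 6 were called lower in KO Pio livers, with a median log2 fold change of -0.72; Canx, the lectin chaperone calnexin, was the exception at -0.42. Of the 6 chaperones whose window lacked one, Pdia4 was called, and their median was -0.41. Without mice 832 and 13 the medians were -0.67 and -0.59 and 2 genes were called on each side. For Pio in WT on the control diet the medians were -0.26 with an ERSE and -0.27 without, with 0 calls on each side. In the PERK/ATF4 arm, 1 of 4 genes with a CEBP-ATF element and 2 of 5 without were called in that WT comparison. In the KO comparison 0 were called on either side. No test of these contrasts was made, since the genes of a list are not replicates of one another.

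For Pio in KO livers the PERK/ATF4 arm held no call by edgeR, and no test set it against the chaperones. By edgeR 0 of its 9 genes were called for Pio on the control diet (1 at an unadjusted p under 0.05, 1 called by limma with sample weights, 0 by DESeq2), and its median log2 fold change was 0.33 with all mice and -0.10 without mice 832 and 13. Mouse 13 was above its 4 group-mates for 5 of the 9 genes. Atf4 was at 70.5, 73.4, 106, 83.5 and 86.5 CPM in KO control and at 68.6, 108, 230, 57.6 and 62.9 CPM in KO Pio. The value of 230 CPM was that of mouse 13, and the groups overlapped with and without it. Ddit3, the pro-apoptotic transcription factor CHOP, was at 7.58, 7.73, 15.1, 13.0 and 8.92 CPM in KO control and at 5.77, 11.8, 4.13, 5.36 and 7.60 CPM in KO Pio. Its log2 fold change was -0.59 (95% interval -1.20 to 0.02, adjusted p = 0.193 by edgeR). Xbp1 was at 201, 176, 142, 196 and 196 CPM in KO control and at 179, 138, 403, 232 and 176 CPM in KO Pio. Apart from mouse 13 at 403 CPM, the Xbp1 values of the groups lay over each other.

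**Figure D3:**
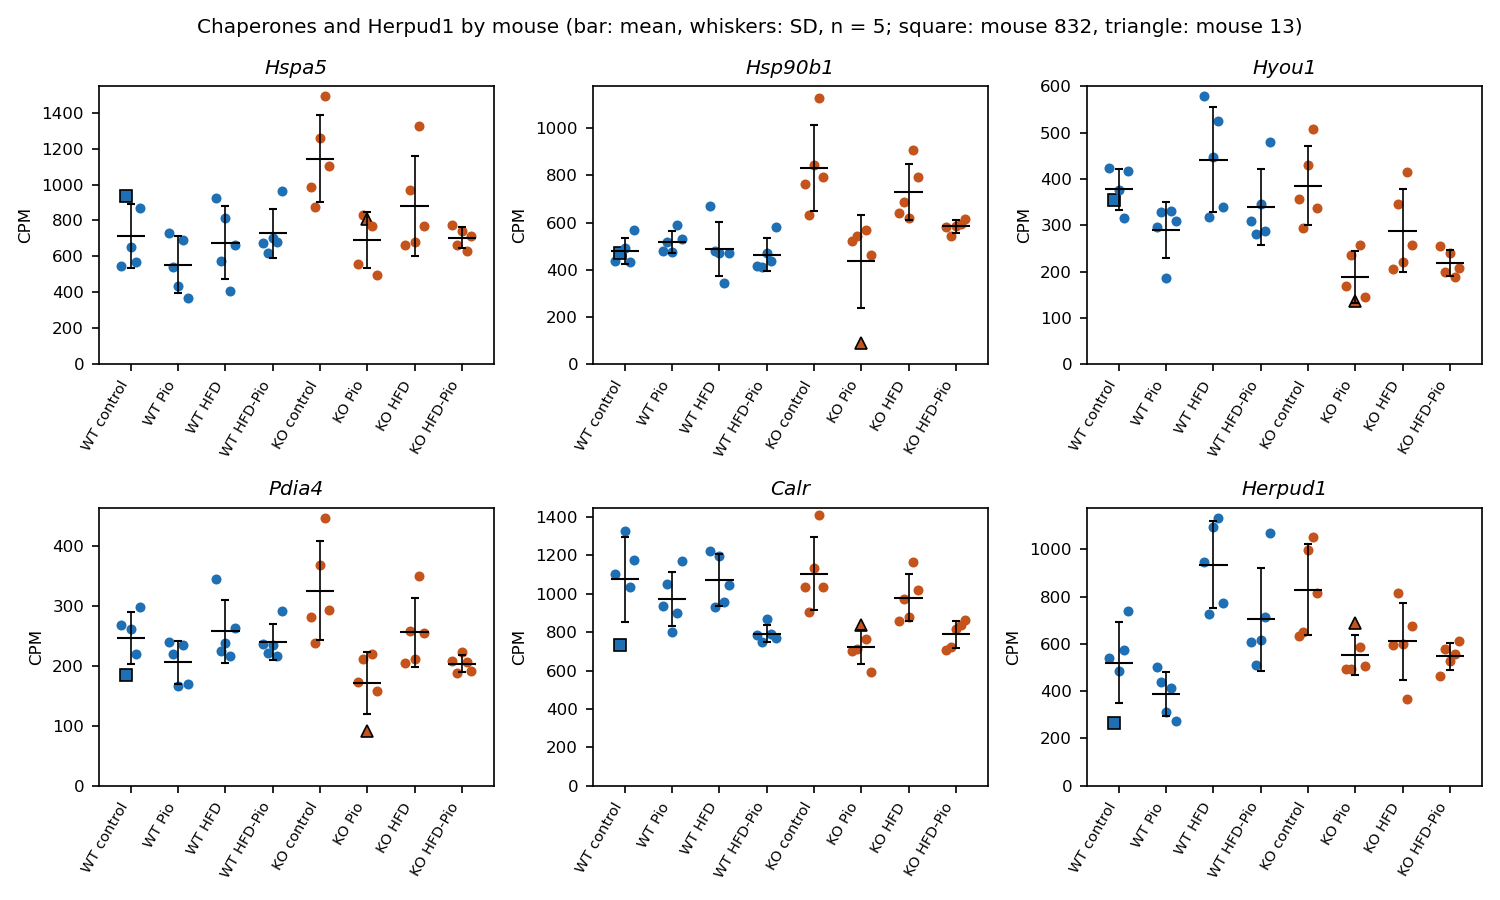
CPM of 5 chaperones and Herpud1 in each mouse of the 8 groups (WT blue, KO orange), with the mean and SD of 5 mice; the square is mouse 832 and the triangle mouse 13. All KO Pio points lie below all KO control points for the 5 chaperones, and the mean of Herpud1 is higher in WT HFD than in WT control and in WT HFD-Pio than in WT Pio. The chaperones shown are among the 7 members that were lower without overlap in that comparison. Creld2, also called lower there, overlapped and is not shown.

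In WT livers on the control diet, 3 members were called with all mice. They were Atf3, Ddit3 and Ppp1r15a of the PERK/ATF4 arm, all lower with Pio, against 1.47% of all genes called lower and 2.44% higher. All 9 genes of the arm had log2 fold changes below 0, with a median of -0.83, and 7 of 9 did without mice 832 and 13, with a median of -0.63. Without mouse 832 alone none of the 3 was called, and the 1 member called was the chaperone-list gene Manf (-0.76, adjusted p = 0.048 by edgeR), against 3.18% of all genes. The 15 chaperones had a median of -0.29 and 0 calls by edgeR (4 at an unadjusted p under 0.05, 4 called lower by limma with sample weights and 1 by DESeq2), and 5 calls without mice 832 and 13. No test of a difference between the lists was made. Ddit3 alone of the 35 was lower in all 5 Pio mice than in all 5 control mice, against 3.03% of all genes.

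Ddit3 was at 15.3, 47.3, 14.3, 9.98 and 11.4 CPM in WT control and at 7.40, 9.86, 6.69, 7.29 and 6.71 CPM in WT Pio. The highest control value was that of mouse 832, and the groups stayed apart without it: the log2 fold change was -1.37 (SE 0.30, adjusted p = 0.00672 by edgeR) with it, -0.73 (SE 0.24, adjusted p = 0.0879) without mouse 832 alone and -0.73 (SE 0.22, adjusted p = 0.0217) without mice 832 and 13. Reads of Ddit3 share their locus with Mars on the opposite strand, and whether counting used strand is not given in the sources used here. Mars was itself called lower in this comparison, by -0.60 on the log2 scale (adjusted p = 0.0226 by edgeR; -0.66, adjusted p = 0.00342 without mice 832 and 13), and its part in the Ddit3 counts was not tested. Ppp1r15a, the phosphatase subunit that reverses eIF2α phosphorylation, was at 30.1, 37.6, 34.1, 18.5 and 17.1 CPM in WT control and at 11.1, 18.0, 16.9, 13.0 and 14.7 CPM in WT Pio. Its log2 fold change was -0.90 (SE 0.23, adjusted p = 0.0222 by edgeR) and, without mice 832 and 13, -0.74 (adjusted p = 0.00898). Leaving out mouse 832, 833, 844 or 845 alone ended this call, with -0.74 (adjusted p = 0.0853) without mouse 832, and limma with sample weights did not call it (-0.47).

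Atf3, a stress-induced repressor, was at 4.13, 64.1, 9.55, 2.11 and 1.52 CPM in WT control and at 2.50, 1.06, 2.01, 1.63 and 2.39 CPM in WT Pio. The difference rested on mouse 832: the log2 fold change was -3.08 (SE 0.73, adjusted p = 0.0132 by edgeR) with it and -1.12 (SE 0.59, adjusted p = 0.206) without mice 832 and 13, and an exact permutation test of the 10 values gave p = 0.103. Trib3, an ATF4-induced pseudokinase given after its values were seen, had 100 CPM in mouse 832 against 5.25 to 17.8 CPM in the other controls. Atf4 itself was at 196, 151, 207, 99.7 and 107 CPM in WT control and at 103, 135, 124, 112 and 101 CPM in WT Pio. These overlapped, with a log2 fold change of -0.41 (95% interval -0.93 to 0.11, adjusted p = 0.438 by edgeR).

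Without mice 832 and 13, 9 of 35 members were called lower in WT Pio livers and none higher: Ddit3, Ppp1r15a and Sesn2 of the PERK/ATF4 arm, the chaperone-list genes Dnajb11, Dnajc3, Manf, Pdia6 and Sdf2l1, and Derl3 of ERAD. The share of all genes called in either direction was 14.7% in that fit, so 9 of 35 is read against a high background. Sdf2l1 was at 38.9, 20.2, 55.8, 41.1 and 61.4 CPM in WT control and at 36.5, 27.97, 13.6, 27.9 and 10.7 CPM in WT Pio; the value of 20.2 CPM was that of mouse 832, and the rest of the controls lay above all Pio mice. The count of calls was 9 without mouse 13 alone, a KO mouse outside this comparison, against 15.5% of all genes. The common dispersion, which all 8 groups share, was 0.085 with all mice and 0.0442 without both.

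Other genes that ATF4 is known to induce, outside the 35, were lower in the same comparison. Of 33 tested, 12 were called lower and 1 higher, and without mice 832 and 13 the numbers were 16 and 2. Of all genes, 1.47% were called lower and 2.44% higher in this comparison. Without mice 832 and 13 the share was 14.7% in either direction. Fgf21, a hepatic stress hormone, was at 2.30 ± 1.15 CPM in WT Pio and 18.9 ± 12.6 CPM in WT control (log2 fold change -3.01, adjusted p = 0.00101 by edgeR). Psat1, of serine synthesis, fell by 2.16 (adjusted p = 0.0274 by edgeR) and Mthfd2, of mitochondrial one-carbon metabolism, by 1.96 (adjusted p = 0.0113), both on the log2 scale. Mthfd2 was also called without mice 832 and 13, at -1.48, and Psat1 was not (-1.27, adjusted p = 0.0738). Without mouse 832 alone, neither Mthfd2 (adjusted p = 0.061 by edgeR) nor Psat1 (adjusted p = 0.221) was called. Fgf21 (adjusted p = 0.00472) was called in that fit. Vldlr was the gene called higher, by 1.75 (adjusted p = 0.0153). Of 15 clock genes 7 were called in this comparison too, 4 higher and 3 lower, among them Npas2 (-2.10, adjusted p = 0.0083 by edgeR), Ciart (2.01) and Per3 (1.67). Summed clock genes were 392 to 739 CPM in WT control and 798 to 1228 CPM in WT Pio, and their part in the result for the PERK/ATF4 arm was not tested.

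**Figure D4:**
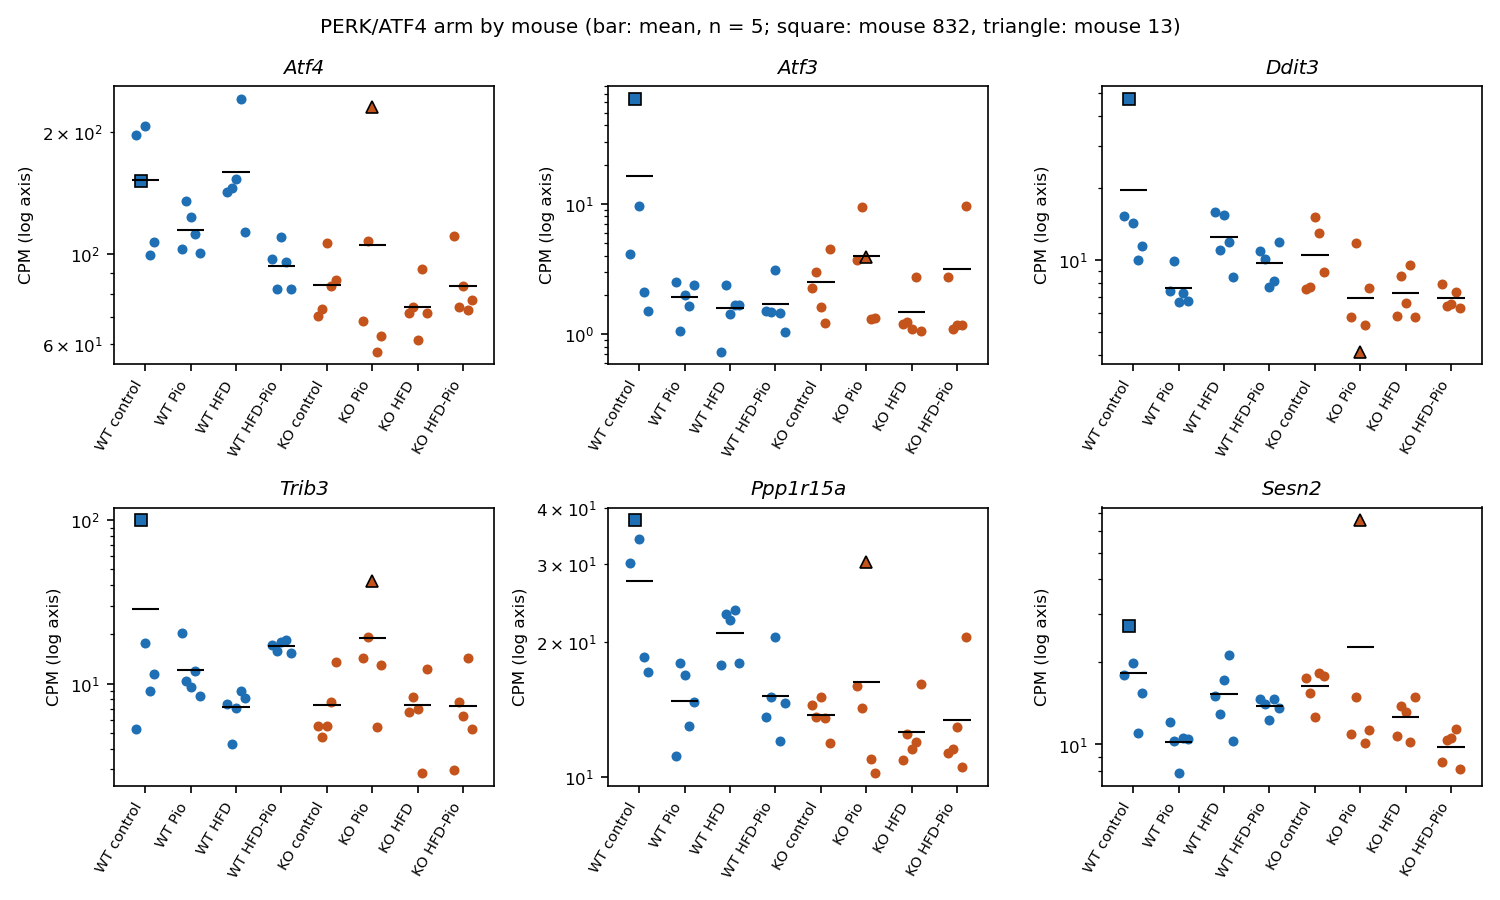
CPM on a log axis of 6 PERK/ATF4 genes in each mouse of the 8 groups (WT blue, KO orange), with bars at the mean of 5 mice; the square is mouse 832 and the triangle mouse 13. Mouse 832 is the highest WT control mouse for Atf3, Ddit3, Trib3, Ppp1r15a and Sesn2, and mouse 13 the highest KO Pio mouse for Atf4, Trib3, Ppp1r15a and Sesn2.

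Whether Pio acted differently by genotype was tested as an interaction. On the control diet, Atf3 (3.72, SE 1.00, adjusted p = 0.022 by edgeR), Trib3 (2.58, SE 0.76, adjusted p = 0.0331) and Ppp1r15a (1.15, SE 0.33, adjusted p = 0.0288) had a higher Pio effect in KO than in WT, against 7.87% of all genes called in either direction, a share close to 3 of 35. None of these 3 was called without mice 832 and 13, where the values were 1.76, 0.61 and 0.64. Hsp90b1 was the 1 member called in that fit, against 5.49% of all genes: its Pio effect was lower in KO than in WT by 0.79 (SE 0.21, adjusted p = 0.022), against 1.05 (SE 0.35, adjusted p = 0.0547) with all mice. In WT livers Hsp90b1 was at 438, 471, 491, 432 and 567 CPM with control and at 482, 516, 475, 591 and 531 CPM with Pio. For the other chaperones the interaction was not called in either fit; that of Hspa5 was -0.36 (95% interval -0.99 to 0.28) and that of Hyou1 -0.65 (95% interval -1.26 to -0.05, adjusted p = 0.15 by edgeR).

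On the HFD few members were called for Pio. In KO livers 0 of 35 were called by edgeR, by limma with sample weights and by DESeq2 (1 at an unadjusted p under 0.05), against 0% of all genes called higher and 0.0155% lower, and 0% in either direction without mice 832 and 13. Of the 15 chaperones, 14 had log2 fold changes below 0, with a median of -0.31. Hspa5 was at 662, 972, 680, 1324 and 768 CPM in KO HFD and at 773, 661, 743, 630 and 712 CPM in KO HFD-Pio. The groups overlapped, the highest value was that of mouse 9, and the log2 fold change was -0.32 (95% interval -0.77 to 0.12). A change of the Pio effect with diet was called in KO for 0 of 35 members by edgeR (3 at an unadjusted p under 0.05, 1 by limma with sample weights, 0 by DESeq2), as for 0% of all genes; for Hspa5 it was 0.40 (95% interval -0.23 to 1.03).

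Ddit3 was at 5.83, 8.56, 6.59, 9.48 and 5.78 CPM in KO HFD and at 7.92, 6.42, 6.52, 7.36 and 6.29 CPM in KO HFD-Pio. Atf4 was at 71.6, 74.0, 61.3, 92.1 and 71.8 CPM in KO HFD and at 111, 74.2, 83.4, 72.8 and 77.1 CPM in KO HFD-Pio. Xbp1 was at 139, 197, 142, 359 and 201 CPM in KO HFD and at 200, 158, 214, 170 and 321 CPM in KO HFD-Pio. All these groups overlapped.

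In WT livers on the HFD, 0 of 35 members were called for Pio by edgeR (9 at an unadjusted p under 0.05, 2 by limma with sample weights, 0 by DESeq2), against 0.603% of all genes higher and 0.479% lower. Without mice 832 and 13, neither of which is in this comparison, 5 were called at a background of 14.1%, a share close to 5 of 35. They were Atf4 and Calr lower, and Trib3, Edem1 and Dnajc10 higher. Atf4 was at 143, 145, 153, 241 and 113 CPM in WT HFD and at 97.1, 82.2, 110, 95.5 and 82.2 CPM in WT HFD-Pio. The 241 CPM was that of mouse 829. No HFD-Pio mouse reached the lowest HFD mouse, and the log2 fold change was -0.77 (SE 0.26, adjusted p = 0.13 by edgeR; -0.76, SE 0.19, adjusted p = 0.00962 without mice 832 and 13). Trib3 went the other way, at 7.47, 4.27, 7.07, 9.02 and 8.16 CPM in WT HFD and at 17.2, 15.9, 17.9, 18.4 and 15.3 CPM in WT HFD-Pio. The groups did not overlap, with a log2 fold change of 1.23 (SE 0.54, adjusted p = 0.263 by edgeR) with all mice and 1.24 (SE 0.38, adjusted p = 0.0265) without those 2. Of the 35 members, 3 were higher and 2 lower in all 5 HFD-Pio mice than in all 5 HFD mice. The shares of all genes were 3.22% and 3.89%. Calr had a log2 fold change of -0.44, Edem1 (a lectin that directs misfolded glycoproteins to ERAD) of 0.45 and Dnajc10 (an ER disulfide reductase) of 0.62.

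Hspa5 was at 927, 573, 813, 408 and 662 CPM in WT HFD and at 675, 617, 702, 679 and 966 CPM in WT HFD-Pio. Xbp1 was at 169, 220, 157, 201 and 221 CPM in WT HFD and at 157, 133, 184, 179 and 282 CPM in WT HFD-Pio. Ddit3 was at 15.9, 11.0, 15.4, 11.9 and 8.46 CPM in WT HFD and at 10.9, 10.0, 7.69, 8.17 and 11.9 CPM in WT HFD-Pio. All of these overlapped, and none was called. The Pio effect in WT differed between diets for 0 of 35 members by edgeR (5 at an unadjusted p under 0.05, 2 by limma with sample weights, 0 by DESeq2), against 0.0773% of all genes. On the HFD it differed between genotypes for 0 of 35 (3 at an unadjusted p under 0.05, 0 by limma and 0 by DESeq2), against 0.0927%.

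The diet itself gave 1 member called higher in WT livers, Herpud1. It was at 542, 265, 483, 572 and 740 CPM in WT control and at 947, 725, 1092, 1133 and 772 CPM in WT HFD. The top control mouse lay above the lowest HFD mouse, the 265 CPM was that of mouse 832, and the log2 fold change was 0.84 (SE 0.23, adjusted p = 0.0493 by edgeR; 0.68, adjusted p = 0.0732 without mice 832 and 13). With Pio in both diets, Herpud1 was at 500, 438, 311, 413 and 273 CPM in WT Pio and at 610, 511, 615, 712 and 1070 CPM in WT HFD-Pio. Here the groups did not overlap, and the log2 fold change was 0.86 (SE 0.23, adjusted p = 0.0467 by edgeR; 0.86, adjusted p = 0.00549 without mice 832 and 13). Both calls lay close to the threshold: of 40 fits that each left out 1 mouse, 8 and 18 kept them. The 1133 CPM in WT HFD was that of mouse 829, and leaving out this mouse was among the fits that ended the call without Pio. The promoter of Herpud1 held both the ERSE-II and the CEBP-ATF element given above.

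Against control, the HFD gave 2 calls among the 35 members in WT livers, Herpud1 higher and Atf3 lower (-3.37, SE 0.76, adjusted p = 0.0153), against 0.595% of all genes higher and 0.719% lower. Atf3 again rested on mouse 832, since WT HFD mice were at 0.733, 2.37, 1.43, 1.67 and 1.68 CPM and the other control mice at 1.52 to 9.55 CPM; without mice 832 and 13 it was at -1.43 (adjusted p = 0.229), and 0 of 35 members were called (7 at an unadjusted p under 0.05), against 2.29% of all genes. Of 33 other ATF4 targets, 5 were called lower with the HFD, led by Psat1 (-2.78), Ddit4 (-1.92) and Mthfd2 (-1.91). Without those mice 4 were called, Psat1 (-1.89), Ddit4 (-1.80), Aldh1l2 and Gars, and Mthfd2 (-1.44, adjusted p = 0.0684) and Cebpg were not. Without mouse 832 alone, none of Psat1 (adjusted p = 0.145 by edgeR), Ddit4 (0.0681), Aldh1l2 (0.167) and Gars (0.143) was called. With Pio in both diets, Herpud1 was the 1 call, against 0.255% of all genes higher and 0.966% lower, and it was again the 1 call without the 2 mice, where the background was 10.4%. Syvn1, the ERAD ubiquitin ligase HRD1, had 446 ± 179 CPM in WT HFD against 237 ± 64.5 CPM in WT control and was not called (log2 fold change 0.91, adjusted p = 0.203 by edgeR). Its highest WT HFD value, 738 CPM, was that of mouse 829.

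The chaperones had a median log2 fold change of -0.01 for the HFD in WT livers without Pio and of 0.23 with Pio, and none was called. Neither Hspa5, Xbp1 nor Atf4 was called for the diet. Hspa5 was at 544, 936, 651, 568 and 867 CPM in WT control, and its log2 fold change was -0.08 (95% interval -0.52 to 0.37). It was at 731, 543, 436, 692 and 368 CPM in WT Pio, against which WT HFD-Pio was higher by 0.39 on the log2 scale (95% interval -0.06 to 0.84). Xbp1 was at 179, 172, 154, 273 and 198 CPM in WT control and at 150, 164, 258, 258 and 194 CPM in WT Pio, values that overlap those of every WT group on the HFD.

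In KO livers the HFD gave 0 calls among the 35 members without Pio (4 at an unadjusted p under 0.05, 3 by limma with sample weights, 0 by DESeq2), against 0.162% of all genes higher and 0.0232% lower, and 0 without mice 832 and 13, at a background of 0.386%. Of 15 chaperones, 14 had log2 fold changes below 0, with a median of -0.23. Herpud1 was at 632, 650, 997, 1050 and 817 CPM in KO control and at 595, 815, 600, 368 and 677 CPM in KO HFD, a log2 fold change of -0.44 (95% interval -0.90 to 0.02). The HFD effect on Herpud1 was thus lower in KO than in WT by 1.28 (SE 0.32, unadjusted p = 0.000268, adjusted p = 0.0885 by edgeR), which did not pass the threshold; 0 of 35 members did in that test (8 at an unadjusted p under 0.05, 2 by limma with sample weights, 1 by DESeq2), against 0.0618% of all genes.

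With Pio in both diets, the HFD gave 1 call in KO, Sesn2 (a stress-induced inhibitor of mTORC1), with a log2 fold change of -1.20 (SE 0.32, adjusted p = 0.0399 by edgeR), against 0.425% of all genes higher and 4.54% lower. The chaperone median was 0.02. Sesn2 was at 10.9, 14.9, 65.8, 10.2 and 11.3 CPM in KO Pio and at 8.64, 10.4, 10.5, 11.4 and 8.17 CPM in KO HFD-Pio. The 65.8 CPM was that of mouse 13, and without mice 832 and 13 Sesn2 was at -0.27 (adjusted p = 0.9998), with 0 members called (2 at an unadjusted p under 0.05) and 0.348% of all genes. The HFD effect with Pio differed between genotypes for 0 of 35 members (8 at an unadjusted p under 0.05, 3 by limma with sample weights, 1 by DESeq2), against 0.0155% of all genes.

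**Figure D5:**
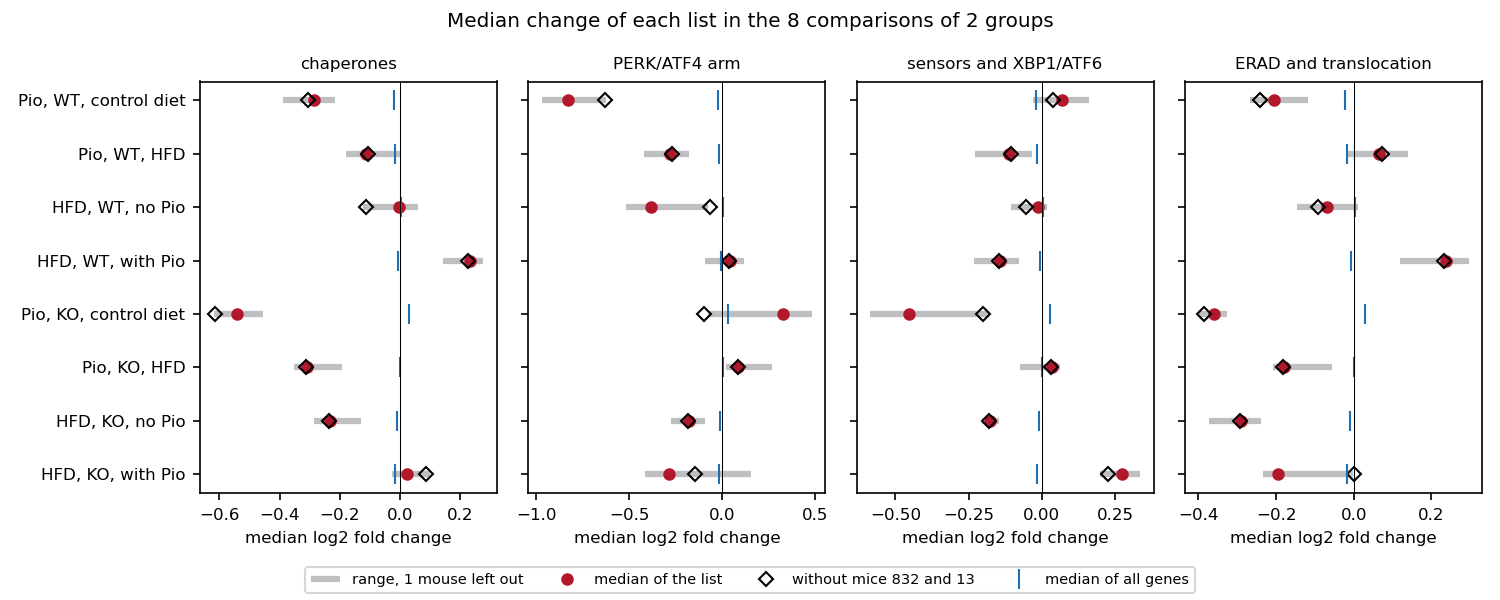
Median log2 fold change of each of the 4 lists (red dots) in the 8 comparisons of 2 groups, with the median without mice 832 and 13 (diamonds), the range when 1 mouse is left out (grey bars) and the median of all genes (blue ticks); each panel has its own x axis. The chaperone dot for Pio in KO on the control diet is the lowest of its panel, at -0.54, and the PERK/ATF4 dot for the same comparison changes sign without the 2 mice.

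Among the lowest members by level, Derl3, an ERAD factor known from secretory cells and given after its values were seen, was at 5.63, 3.12, 8.98, 31.1 and 8.89 CPM in KO control and at 0.413, 1.51, 9.86, 2.64 and 1.10 CPM in KO Pio. The groups overlapped through mouse 13 at 9.86 CPM, and the log2 fold change was -1.89 (SE 0.67, adjusted p = 0.0667 by edgeR; -3.02, SE 0.71, adjusted p = 0.0309 without mice 832 and 13). In WT it was at 9.26, 2.05, 4.90, 7.87 and 7.18 CPM with control and at 2.45, 1.86, 0.612, 1.18 and 1.89 CPM with Pio, a log2 fold change of -1.96 (SE 0.69, adjusted p = 0.107 by edgeR; -2.16 and called without mice 832 and 13). Plasma cells and pancreatic acinar cells are known to carry much of this mRNA. The summed plasma cell markers were 96.3 to 128 CPM in WT control mice other than mouse 832 at 35.4 CPM, and 42.6 to 114 CPM in WT Pio; in KO they were 21.4 to 49.0 CPM with control and 4.99 to 39.4 CPM with Pio. Mouse 10 (KO HFD), highest of its group for Derl3 at 9.05 CPM, had summed pancreatic acinar markers of 946 CPM against 5.94 to 28.6 CPM in its group-mates and plasma cell markers of 176 CPM. Mouse 13, highest for Derl3 in KO Pio, had acinar markers of 154 CPM. Mouse 4 (KO control) at 31.1 CPM and mouse 840 (WT HFD-Pio) at 18.0 CPM were also highest of their groups for Derl3. Their plasma cell sums were the lowest of their groups, at 21.4 and 24.1 CPM, and their acinar sums were 12.2 and 9.84 CPM. The part of such cells in the Derl3 values was not tested. Asns, the glutamine-dependent asparagine synthetase, had group means of 2.58 to 8.55 CPM and SDs up to 9.47 CPM, and it was called in none of the 8 comparisons.

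The other members were called in none of the 8 comparisons with all mice. In KO control and KO Pio, respectively, Dnajb9 (a BiP co-chaperone) averaged 76.9 ± 22.6 and 53.5 ± 9.77 CPM, Dnajb11 117 ± 20.1 and 87.6 ± 27.3 CPM, Pdia3 557 ± 104 and 423 ± 108 CPM, Canx 476 ± 55.9 and 357 ± 107 CPM, Dnajc10 25.1 ± 3.52 and 22.0 ± 10.8 CPM, and Manf (a secreted ER stress factor) 128 ± 26.2 and 88.3 ± 20.0 CPM. These means were all lower with Pio, and none of the differences was called. Atf6 averaged 134 ± 10.6 and 97.5 ± 43.1 CPM, Derl2 108 ± 16.1 and 78.4 ± 33.4 CPM, Ssr1 (a translocon-associated protein) 132 ± 6.62 and 115 ± 13.0 CPM, Syvn1 194 ± 67.3 and 162 ± 123 CPM, Edem1 258 ± 22.4 and 276 ± 81.3 CPM, and Derl1 (a channel component of ERAD) 101 ± 4.16 and 132 ± 75.4 CPM. The larger SDs with Pio went with mouse 13, which was above its 4 group-mates for Syvn1 (379 CPM), Edem1 (419 CPM) and Derl1 (267 CPM) and below them for Atf6 (22.7 CPM) and Derl2 (21.3 CPM). Eif2ak3 averaged 20.99 to 26.4 CPM over the 8 groups and Chac1, which degrades glutathione, 7.98 to 23.0 CPM, the highest mean being that of WT HFD.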

How the data were processed

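Libraries were made from poly-A selected RNA of 40 livers. Per the labels, reads were aligned with STAR 2.0.4b to GRCm38 and counted per gene with featureCounts 1.4.5; the authors deposited raw counts in 1 table for 20 WT and 1 for 20 KO mice. Strand use is not given in the sources used here. The 40594 genes in both tables were joined, repeated lines and 355 rRNA genes were removed, and genes with 1 CPM in 5 mice were tested with edgeR 4.0.16 (TMM factors, robust quasi-likelihood fit, 1 mean per group over 8 groups) at an adjusted p of 0.05. CPM values use the TMM factors, and RPKM the exon lengths of GENCODE M21. The mice of a group are separate animals. An edgeR p-value sets the difference of group means against the spread between mice, with a dispersion estimated over all 8 groups. Comparisons that share a group are not independent. Alternatives were limma 3.58.1 with sample weights (the study's own method), DESeq2 1.42.0, RLE factors, no filter, each genotype fitted alone, each mouse left out, and mice 832 and 13 left out. The edgeR script was tested on simulated data. The members and lists were chosen with earlier results of these data known. By rule, values of every mouse are given for Hspa5, Xbp1, Atf4 and Ddit3 and, in each comparison, for up to 4 called members with the largest change and a mean of at least 5 CPM, and up to 3 called genes with the largest change are named from other lists; further genes are said to be chosen after their values were seen.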

Additional observations from a re-analysis of the deposited data

Results flagged for a closer look

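In 48 of 280 sets of 1 member in 1 group of 5 mice, the highest or lowest mouse stood apart by more than Dixon's 95% critical value of 0.71; chance gives about 1 set in 20. The values follow, in CPM.

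Mouse 13 (KO Pio) was apart, and low, for Hsp90b1 (89.8), Pdia6 (51.6), Canx (170), Atf6 (22.7) and Derl2 (21.3), and high for Sdf2l1 (143), Atf4 (230), Ppp1r15a (30.3), Sesn2 (65.8), Edem1 (419), Syvn1 (379), Derl1 (267) and Derl3 (9.86). Mouse 832 (WT control) was apart, and high, for Atf3 (64.1), Ddit3 (47.3), Eif2ak3 (44.1) and Trib3 (100). Mouse 840 (WT HFD-Pio) was the high one for Hspa5 (966), Creld2 (72.9), Pdia4 (291), Asns (6.44), Syvn1 (567), Edem1 (239) and Derl3 (18.0), and mouse 9 (KO HFD) for Dnajc10 (35.02), Atf3 (2.76), Asns (25.2), Xbp1 (359) and Edem1 (397). Mouse 4 (KO control) was high for Pdia6 (395) and Derl3 (31.1), and mouse 20 (KO HFD-Pio) for Atf3 (9.58) and Ppp1r15a (20.5). The rest were Dnajc10 (31.2) and Asns (8.43) in mouse 5, Hyou1 (186) and Eif2ak3 (14.0), both low, in mouse 843, Dnajb9 in mouse 3 (116), Derl1 in mouse 1 (108), Asns in mouse 12 (18.0), Creld2 in mouse 835 (49.3), Atf4 in mouse 16 (111), Atf3 (3.11) and Chac1 (21.9) in mouse 838, Ddit3 in mouse 842 (9.86), Trib3 in mouse 841 (20.5), Ern1 in mouse 11 (130) and Derl3 in mouse 10 (9.05).

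The Pio effect on the control diet differed between genotypes for Atf3 (3.72), Trib3 (2.58) and Ppp1r15a (1.15, all log2, KO minus WT) by the interaction test with all mice, and for none of these without mice 832 and 13. These 3 of 35 members are close to the 7.87% of all genes called in that test.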

How the results depend on the processing

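No member called by edgeR with all mice changed sign in any alternative run of the same comparison. Calls made only by another tool or setting were not all checked for sign. The number of the 35 members called depended on the setting. With limma and sample weights the calls were 8 for Pio in WT on the control diet (3 by edgeR), 2 for Pio in WT on the HFD (0), 0 for the HFD in WT (2), 3 for the HFD in WT with Pio (1), 19 for Pio in KO on the control diet (10), 3 for the HFD in KO (0), 0 for the HFD in KO with Pio (1), 2 and 1 for Pio by diet in WT and KO (0 and 0), 1 for Pio by genotype on the control diet (3), and 2 and 3 for the HFD by genotype without and with Pio (0 and 0). With DESeq2 they were 5 for Pio in WT and 5 for Pio by genotype, both on the control diet, and 1 and 1 for the HFD by genotype without and with Pio. With no filter they were 1 for the HFD in WT, 0 for it with Pio, 5 for Pio in KO on the control diet, 0 for the HFD in KO with Pio and 1 for Pio by genotype on the control diet. With each genotype fitted alone they were 5 for Pio in WT on the control diet, 1 for the HFD in WT, 0 for it with Pio, 0 for Pio in KO on the control diet and 0 for the HFD in KO with Pio. Without mice 832 and 13 they were 9 and 5 for Pio in WT on the control diet and the HFD, 0 for the HFD in WT, 6 for Pio in KO on the control diet, 0 for the HFD in KO with Pio and 1 for Pio by genotype on the control diet. For Pio in KO on the control diet, the share of all genes called was 9.4% by limma, 11% by DESeq2, 2.94% with no filter and 0% with the genotype alone, and for Pio in WT on that diet 23.9%, 6.28%, 1.13% and 7.16%; in KO fitted alone it was 0% in every comparison. By limma it was 8.4% for Pio in WT on the HFD. For the HFD without and with Pio it was 2.53% and 22.7% in WT, and 4.19% and 2.39% in KO. For Pio by diet it was 10.6% in WT and 0.402% in KO. It was 15.4% for Pio by genotype on the control diet, and 1.43% and 7.53% for the HFD by genotype without and with Pio. By DESeq2 these last 3 shares were 10.8%, 0.703% and 0.834%. The cause of these differences was not tested.

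Leaving out 1 mouse gave 1 to 9 calls for Pio in WT on the control diet, 0 to 3 on the HFD, 0 to 3 for the HFD in WT and 0 to 1 with Pio. In KO it gave 2 to 11 for Pio on the control diet and 0 to 3 for the HFD with Pio. It gave 0 to 1 for Pio by diet in WT, 0 to 5 for Pio by genotype on the control diet, and 0 to 1 for the HFD by genotype without and with Pio. RLE factors moved no count by over 1.5 times. No paired analysis was possible because the mouse numbers are not shared between groups. With 5 mice a group, small changes of genes at a few CPM could not be called, and genotype cannot be separated from the table of origin.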
